A study of Mus musculus with 23 samples.

Results

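The genes described here are 38 heat shock proteins and chaperones, taken by their symbols from the 39017 genes measured in the hippocampus of each mouse library. They fall into 7 groups by role: 7 HSP70 and HSP110 genes, 10 genes of HSP90 and its co-chaperones, 7 HSP40 genes, 3 mitochondrial chaperones, Hspb1 with Bag3, 2 heat shock factors, and 7 subunits of the chaperonin TRiC/CCT. The set is mostly cytosolic, but Hspa9, Hspd1 and Hspe1 encode chaperones of mitochondria. RNA of the hippocampus was sequenced from wild-type (WT) mice and from mice that the labels call knockouts of Nrsn2, the gene of the neuronal membrane protein neurensin 2. In each genotype, mice that had been through chronic social defeat stress (CSDS) were set against controls at baseline. CSDS here meant daily bouts of 5 min with an aggressive CD-1 mouse, a new one each time, over 10 days, with the pair living on either side of a perforated divider in between. The 20 libraries compared were 5 labelled knockout after CSDS, 5 labelled knockout as controls, 5 WT after CSDS and 5 WT controls.

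The labels give no strain, age, sex or description of the Nrsn2 allele, and number the libraries without saying that each is a separate animal, so a p-value reflects only how far these samples vary. Nrsn2 RNA was not lower in libraries labelled knockout: it averaged 34.1 ± 2.34 RPKM there after CSDS against 29.7 ± 2.55 RPKM in WT after CSDS, and 31.2 ± 1.93 RPKM in knockout-labelled controls against 29.1 ± 2.42 RPKM in WT controls (RPKM is reads per kilobase of gene scaled to library size; SD, n = 5 each). The genotype is therefore written as the KO label throughout. For 3 further libraries, 1 WT and 2 KO-labelled, the title says control and the treatment field says CSDS, and these were left out of the comparisons. Study notes give 5 controls per genotype and 6 to 7 mice after CSDS, which is the number that the treatment field yields. Libraries held an estimated 25.62 to 55.61 M reads, median 44.63 M. Control 10 of each genotype had high levels of Xist, which marks female tissue (48.2 RPKM in the KO-labelled control 10 and 56.5 RPKM in the WT control 10), and no CSDS library did. Of the libraries of conflicting label, KO-labelled 11 had Xist at 1.60 RPKM and KO-labelled 10B at 1.45 RPKM, against 0.0250 to 0.0618 RPKM in WT 9B and all compared libraries other than the controls numbered 10. The Y-linked gene Ddx3y was at 9.99 RPKM in KO-labelled 11, 8.75 RPKM in KO-labelled 10B and 9.66 RPKM in WT 9B. It was at 0.499 RPKM in KO-labelled control 10 and 0.163 RPKM in WT control 10, and at 9.66 to 13.0 RPKM in the other compared libraries.

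Chaperones bind unfolded proteins and, in most families, use rounds of ATP hydrolysis to help them fold. HSP70 is loaded by HSP40 proteins and reset by nucleotide exchange factors such as the HSP110 proteins, and it hands part of its clients to HSP90, whose cycle is tuned by co-chaperones. Many of these genes are switched on together by heat shock factor 1 (HSF1), which binds inverted repeats of the letters GAA called heat shock elements, whereas TRiC/CCT folds actin and tubulin in resting cells. In neurons, the constitutive HSP70 and HSP90 genes are abundantly transcribed without any stress.

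The regulatory letters that the group is known for are shown first. Of the 38 genes, 31 had an entry in the RefSeq table of start sites (build GRCm38.p6), with 43 starts, and the 250 bases before each start were searched on both strands. Cct4, Hsf1, Hsp90aa1, Hsp90ab1, Hspa8, Hspa9 and St13 had no entry and were not searched. A run of 3 adjoining units of a heat shock element (GAANNTTCNNGAA or its reverse complement) was present before 3 of 31 chaperone genes (9.68%), against 0.514% of all 27025 genes in the table. A pair of units (GAANNTTC or TTCNNGAA, each its own reverse complement, and contained in the longer motif) was present before 14 of 31 (45.2%), against 14.5% of all genes. Each window below is 30 bases. They show the 3 genes with a run of 3 or more units (Hspe1, Hspd1 and Dnajb6), then, of the genes with a pair only, the 5 whose RNA was furthest below controls after CSDS in KO-labelled libraries, and Cct5. Each is read 5′ to 3′ on the strand of its gene, and capitals mark the matched units. Hspb1 and Dnaja4 each had a further pair that is not shown, 117 bases before the start of Hspb1 and 52 bases before a start of Dnaja4.
Hspe1, chr1:55088053-55088082, plus strand: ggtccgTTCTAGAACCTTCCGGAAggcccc
Hspd1, chr1:55088053-55088082, minus strand: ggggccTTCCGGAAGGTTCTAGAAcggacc
Dnajb6, chr5:29735843-29735872, plus strand: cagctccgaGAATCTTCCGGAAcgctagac
Hspa1a, chr17:34972242-34972271, minus strand: cgaaactgctgGAAGATTCctggccccaag
Hspa1b, chr17:34959324-34959353, minus strand: cgaaactgctgGAAGATTCctggccccaag
Hsph1, chr5:149636351-149636380, minus strand: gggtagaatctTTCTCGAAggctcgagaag
Hspb1, chr5:135887811-135887840, plus strand: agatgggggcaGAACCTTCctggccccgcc
Dnaja4, chr9:54699458-54699487, plus strand: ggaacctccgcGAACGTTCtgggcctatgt
Cct5, chr15:31601862-31601891, minus strand: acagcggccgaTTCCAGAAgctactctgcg
The Hspd1 and Hspe1 windows are the same 30 bases of chromosome 1 read from either strand, since those genes start head to head. Hspa1a and Hspa1b carry the same window, with its first capital 104 bases before each start, and over 150 bases before their starts the copies were identical at 149 positions (99.3%). Cct5 is shown as an example of a gene with a pair whose RNA did not pass the test in either genotype, and its other start had no match. Cct2, Cdc37 and Hspd1 likewise had a match and passed in neither. Among genes with an entry, the pair was found before 9 of 17 that were lower after CSDS in both genotypes (52.9%) and before 4 of 9 that passed in neither (44.4%). Chordc1 and Bag3, whose RNA was also among the furthest below controls, had no match and so no window. A match is a run of letters only, and binding was not measured here.

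**Figure D1:**
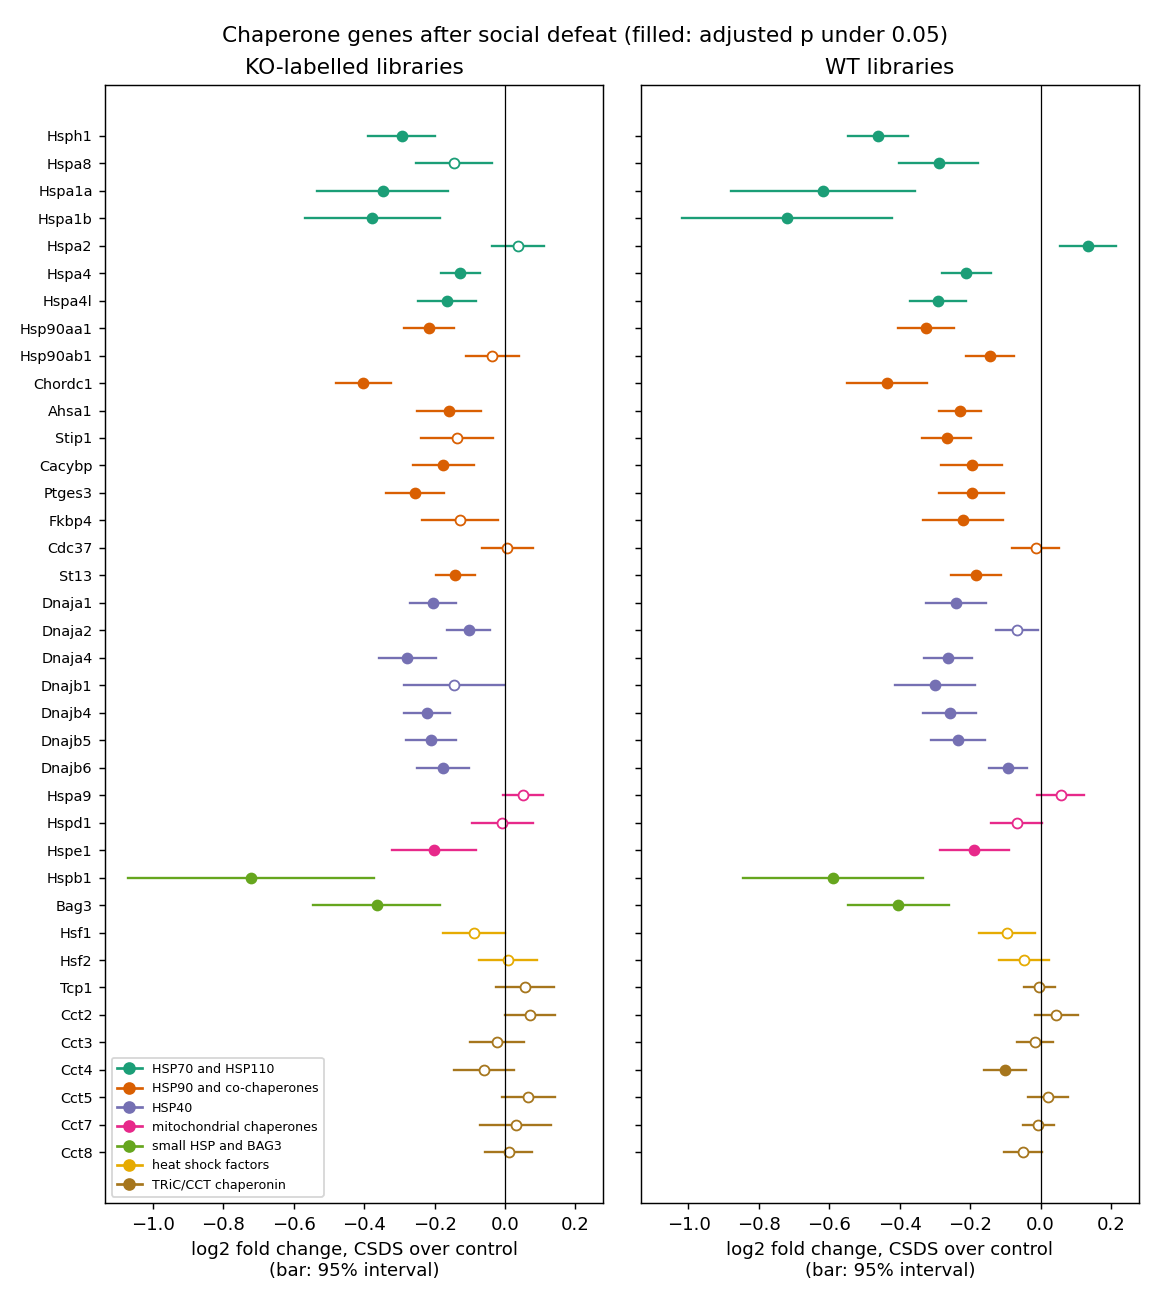
Log2 fold change of each of the 38 chaperone genes after CSDS over control, in KO-labelled libraries (left) and WT libraries (right), on the log2(RPKM + 0.5) scale. Points are estimates from 5 libraries against 5, bars are 95% intervals, filled points passed adjusted p under 0.05, and colours give the 7 role groups. Filled points lie left of 0 except for Hspa2 in WT, and most TRiC/CCT subunits lie near 0.

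Most of the 38 genes were lower after CSDS, in both genotypes and by modest amounts. They were chosen with earlier results of these data known, so their share is not that of chaperone genes at large. In KO-labelled libraries 20 of the 38 were lower after CSDS than in controls (52.6%) and 0 were higher, where 8.88% of all 18259 genes tested were called lower and 6.17% higher (limma, adjusted p under 0.05, Benjamini-Hochberg over all genes, two-sided). At an unadjusted p under 0.05, 25 were lower and 1 was higher. Many genes reach that threshold: Hsf1, at an unadjusted p of 0.0483 (limma), ranked 5460 of the 18259 genes by p. The share of all genes at that threshold was not counted, here or below, so nothing is read from unadjusted counts. Of all genes called in KO-labelled libraries, 41.0% were higher after CSDS, and 52.2% when each library was centred on its median or 52.4% after quantile normalization. Of the 38, 18 were called lower with median centring and 22 after quantile normalization. In WT libraries 25 were lower (65.8%) and 1 was higher, where 12.5% of all 18274 genes tested were called lower and 9.88% higher. The median log2 fold change of the 38 was −0.14 in KO-labelled and −0.20 in WT libraries, against −0.0067 in KO-labelled and −0.0017 in WT libraries over all genes tested. Called genes were 6.90% to 39.3% lower in KO-labelled libraries and 6.25% to 39.3% lower in WT. A drop beyond 1.5-fold was seen for 1 gene in KO-labelled libraries and for 3 in WT. All 38 passed the filter on low values in both genotypes, so none was left out.

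Of the 38 genes, 19 were lower in both genotypes, 6 in WT and not KO-labelled libraries (Hspa8, Hsp90ab1, Stip1, Fkbp4, Dnajb1 and Cct4), and Dnaja2 in KO-labelled libraries and not WT. Hspa2 was higher in WT, and 11 passed in neither: Cdc37, Hspa9, Hspd1, Hsf1, Hsf2, Tcp1, Cct2, Cct3, Cct5, Cct7 and Cct8. The libraries of the groups did not overlap for 18 of the 20 called lower in KO-labelled libraries and for all 25 in WT, where 7.46% of all genes tested lay apart in that direction in KO-labelled libraries and 9.65% in WT. In bulk tissue, fewer cells of a type and less RNA per cell cannot be told apart. The KO-labelled result depends on how the libraries of conflicting label are read: placed with CSDS, as their treatment field says, they leave 0 of the 38 genes lower in KO-labelled libraries and 19 in WT. Calls over all genes, in either direction, fall as well under that placement, from 2747 to 143 in KO-labelled libraries and from 4093 to 1240 in WT. The loss is thus not particular to the chaperone genes. Among the 38 genes the lowest adjusted p in KO-labelled libraries is then 0.0589, for Dnaja4 (limma). The part of the Xist levels of KO-labelled 11 and 10B in this was not tested. Placed with controls, as their titles say, they give 23 genes lower in KO-labelled libraries and 24 in WT.

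HSP70 and HSP110 genes bind unfolded chains directly or reset HSP70, and 5 of 7 were lower in KO-labelled libraries and 6 of 7 in WT, with median log2 fold changes of −0.17 in KO-labelled and −0.29 in WT libraries. The share to set beside this and each role group below is 8.88% of all genes tested lower in KO-labelled libraries and 12.5% in WT. Hsph1 (ENSMUSG00000029657, chr5:149614287-149636376), an HSP110 protein that drives nucleotide exchange on HSP70, was at 37.9, 36.0, 36.7, 35.8 and 39.6 RPKM in KO-labelled libraries after CSDS, against 48.9, 47.8, 42.8, 43.8 and 45.5 RPKM in KO-labelled controls. It was at 33.8, 38.1, 34.3, 36.3 and 33.6 RPKM in WT after CSDS, against 47.8, 51.3, 47.1, 48.3 and 48.5 RPKM in WT controls. Every CSDS library lay below every control of its genotype, and the KO-labelled controls 8 and 9 were the lowest of all controls. The log2 fold change was −0.29 ± 0.04, adjusted p = 0.00236 in KO-labelled libraries and −0.46 ± 0.04, adjusted p = 0.000169 in WT (SE, n = 5 each).

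Hspa1a (ENSMUSG00000091971, chr17:34969190-34972156) and Hspa1b (ENSMUSG00000090877, chr17:34956436-34959238) encode the stress-inducible HSP70 and are near-identical copies: 61.7% of the 75-base stretches of Hspa1a and 55.8% of those of Hspa1b also occur elsewhere, mainly in the other copy. The level of either alone is uncertain, since the handling of such reads is not given in the sources used here. Hspa1a also shares 564 of its 2967 exonic bases with Gm20481 on the opposite strand, in libraries that keep no strand. Hspa1a was at 5.74, 6.20, 8.01, 7.24 and 7.92 RPKM in KO-labelled libraries after CSDS, against 8.76, 8.50, 9.04, 9.65 and 9.10 RPKM in KO-labelled controls. It was at 6.79, 6.01, 6.28, 6.20 and 6.22 RPKM in WT after CSDS, against 8.84, 11.9, 12.5, 9.78 and 7.45 RPKM in WT controls. The groups did not overlap in either genotype, with WT controls spread widely (7 and 8 high, 10 low) and WT libraries after CSDS tightly grouped. The log2 fold change was −0.35 ± 0.08, adjusted p = 0.0210 in KO-labelled libraries and −0.62 ± 0.12, adjusted p = 0.00545 in WT. Hspa1b was at 5.82, 6.57, 8.30, 7.79 and 8.22 RPKM in KO-labelled libraries after CSDS, against 9.60, 9.09, 9.73, 10.1 and 9.50 RPKM in KO-labelled controls. It was at 6.92, 6.50, 6.51, 6.32 and 6.23 RPKM in WT after CSDS, against 9.78, 13.7, 14.5, 10.3 and 8.03 RPKM in WT controls. Its spread followed that of its copy library by library, with log2 fold changes of −0.38 ± 0.09, adjusted p = 0.0171 in KO-labelled libraries and −0.72 ± 0.14, adjusted p = 0.00487 in WT. On the scale used here, WT Hspa1b had the largest drop of the 38 genes in that genotype.

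Hspa8 (ENSMUSG00000015656, chr9:40800984-40810087), the constitutive HSC70, was among the highest of the 38 genes by RPKM. It was at 429.8, 401, 408, 407 and 413 RPKM in KO-labelled libraries after CSDS, against 484, 469, 421, 423 and 484 RPKM in KO-labelled controls. It was at 362, 426, 393, 424 and 365 RPKM in WT after CSDS, against 473, 499.5, 466, 483 and 481 RPKM in WT controls. In KO-labelled libraries the groups overlapped, as controls 8 and 9 lay below the highest CSDS library, and the difference did not pass (−0.15 ± 0.05, adjusted p = 0.0688). In WT every CSDS library was below every control (−0.29 ± 0.05, adjusted p = 0.00342). Of its 75-base stretches 33.0% also occur in other genes.

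The other HSP110 genes moved the same way. Hspa4 averaged 44.2 ± 1.18 RPKM in KO-labelled libraries after CSDS and 48.3 ± 0.726 RPKM in their controls (−0.13 ± 0.02, adjusted p = 0.00895), and 42.0 ± 1.88 RPKM in WT after CSDS and 48.6 ± 1.17 RPKM in WT controls (−0.21 ± 0.03, adjusted p = 0.00189). Hspa4l averaged 15.0 ± 0.585 RPKM after CSDS against 16.8 ± 0.741 RPKM in controls among KO-labelled libraries, with overlapping groups (−0.17 ± 0.04, adjusted p = 0.0165), and 14.3 ± 0.689 RPKM after CSDS against 17.6 ± 0.584 RPKM in controls among WT libraries (−0.29 ± 0.04, adjusted p = 0.000778). Hspa2, an HSP70 best known from male germ cells of the mouse, went against the group. In KO-labelled libraries it averaged 20.7 ± 1.00 RPKM after CSDS against 20.2 ± 0.309 RPKM in controls and did not pass (0.04 ± 0.03, adjusted p = 0.515). It averaged 21.0 ± 0.873 RPKM in WT after CSDS against 19.1 ± 0.798 RPKM in WT controls and was the 1 gene of the 38 called higher (0.13 ± 0.04, adjusted p = 0.0241).

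**Figure D2:**
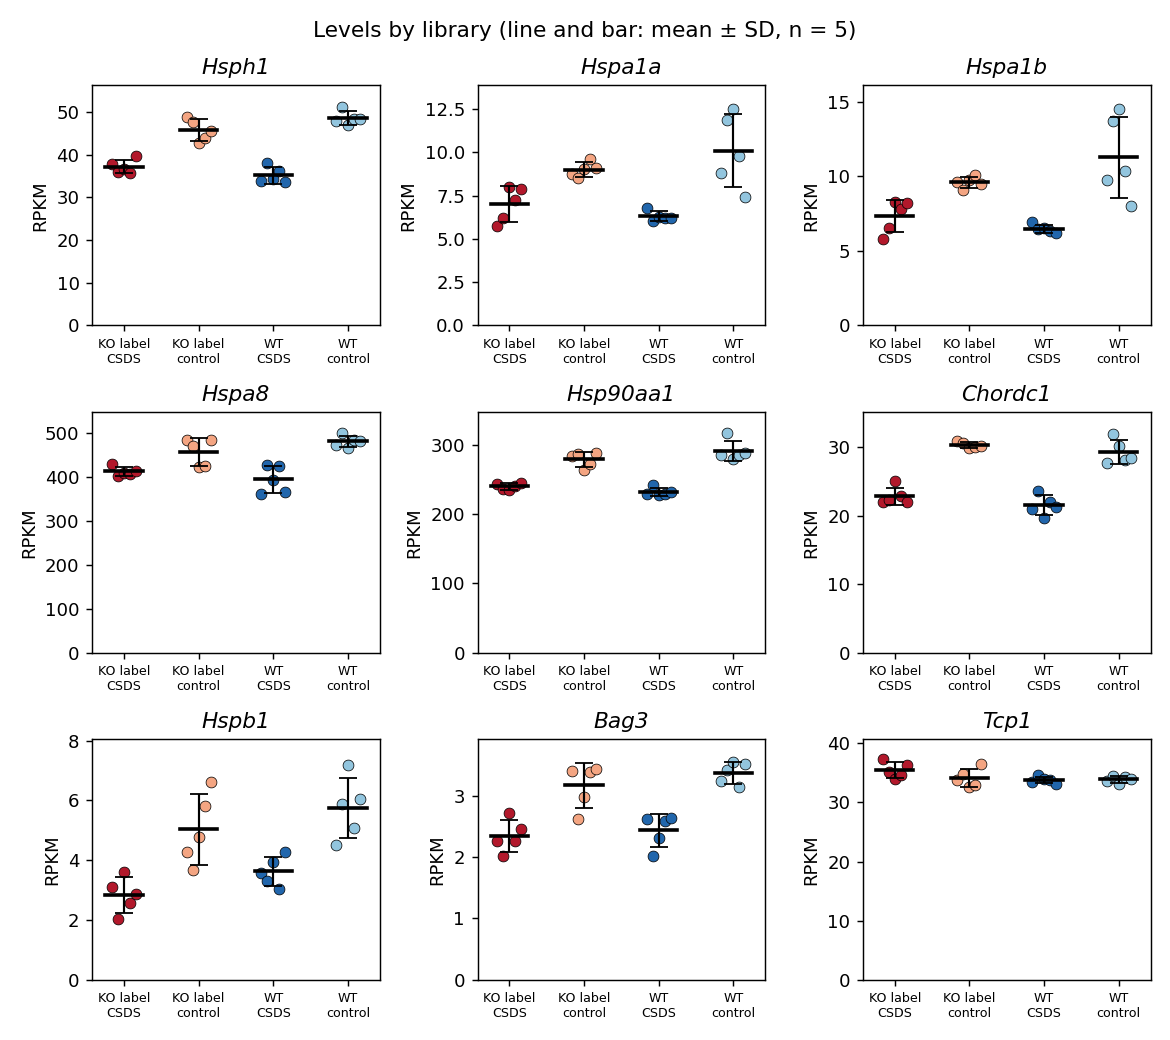
RPKM of 9 chaperone genes in each library, with groups from left to right KO-labelled after CSDS, KO-labelled control, WT after CSDS and WT control. Points are libraries, lines and bars the mean ± SD of 5. Hsph1 and Chordc1 lie lower after CSDS with no overlap in either genotype, Hspa8 overlaps in the KO-labelled pair, and Tcp1, a TRiC/CCT subunit, lies at 32.6 to 37.4 RPKM in every library.

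HSP90 holds late folding intermediates such as kinases and steroid receptors, and 6 of the 10 genes of HSP90 and its co-chaperones were lower in KO-labelled libraries and 9 of 10 in WT (medians −0.15 in KO-labelled and −0.21 in WT libraries). Hsp90aa1 (ENSMUSG00000021270, chr12:110690605-110702728), the inducible HSP90, was at 243, 236, 234, 241 and 244 RPKM in KO-labelled libraries after CSDS, against 283, 286, 264, 271 and 288 RPKM in KO-labelled controls. It was at 228, 242, 227, 229 and 232 RPKM in WT after CSDS, against 285, 317, 279, 285 and 288 RPKM in WT controls. Every CSDS library lay below every control of its genotype (−0.22 ± 0.03, adjusted p = 0.00280 in KO-labelled libraries and −0.33 ± 0.04, adjusted p = 0.000481 in WT). Other genes share 42.8% of its 75-base stretches. Hsp90ab1 (ENSMUSG00000023944, chr17:45567775-45573271), the constitutive form, was at 449.6, 436, 444, 456 and 462 RPKM in KO-labelled libraries after CSDS, against 488, 464, 447, 451 and 456 RPKM in KO-labelled controls. It was at 430.4, 459.9, 441, 446 and 425 RPKM in WT after CSDS, against 507, 483, 485, 488 and 471 RPKM in WT controls. Its KO-labelled groups overlapped and did not pass (−0.04 ± 0.03, adjusted p = 0.523), while in WT the groups lay apart (−0.14 ± 0.03, adjusted p = 0.00845).

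Chordc1 (ENSMUSG00000001774, chr9:18292125-18317442), which encodes an HSP90-binding protein also called morgana, was the co-chaperone with the largest drop. It was at 22.0, 22.4, 25.0, 22.9 and 22.1 RPKM in KO-labelled libraries after CSDS, against 30.9, 30.7, 30.0, 30.0 and 30.2 RPKM in KO-labelled controls. It was at 21.1, 23.6, 19.6, 22.0 and 21.4 RPKM in WT after CSDS, against 27.7, 32.0, 30.2, 28.2 and 28.5 RPKM in WT controls. In KO-labelled controls the values lay within 1 RPKM of each other, and every CSDS library of either genotype was below every control. The log2 fold change was −0.40 ± 0.04, adjusted p = 0.000271 in KO-labelled libraries, the lowest adjusted p of the 38 genes there, and −0.44 ± 0.05, adjusted p = 0.000635 in WT.

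The remaining co-chaperones differed less. Ahsa1, which speeds the ATPase of HSP90, averaged 64.1 ± 2.04 RPKM after CSDS against 71.7 ± 4.26 RPKM in controls among KO-labelled libraries (−0.16 ± 0.04, adjusted p = 0.0283) and 61.8 ± 2.12 RPKM after CSDS against 72.4 ± 1.38 RPKM in controls among WT libraries (−0.23 ± 0.03, adjusted p = 0.000627). Ptges3, the p23 protein that stabilises closed HSP90, averaged 35.8 ± 1.77 RPKM after CSDS against 42.9 ± 1.49 RPKM in controls among KO-labelled libraries (−0.26 ± 0.04, adjusted p = 0.00254) and 33.8 ± 1.18 RPKM after CSDS against 38.9 ± 2.45 RPKM in controls among WT libraries (−0.20 ± 0.04, adjusted p = 0.00865). Cacybp, which resembles the co-chaperone SGT1, fell in both, with log2 fold changes of −0.18 ± 0.04 in KO-labelled libraries and −0.20 ± 0.04 in WT, as did St13, which binds HSP70 (−0.14 ± 0.03 in KO-labelled and −0.18 ± 0.03 in WT libraries). Stip1, the HOP protein that links HSP70 to HSP90, did not pass in KO-labelled libraries (−0.14 ± 0.05, adjusted p = 0.0722) and fell in WT (−0.27 ± 0.03, adjusted p = 0.000635). The same held for Fkbp4, an immunophilin of steroid receptor complexes (−0.13 ± 0.05, adjusted p = 0.102 in KO-labelled libraries and −0.22 ± 0.05, adjusted p = 0.0132 in WT). Cdc37, which brings kinases to HSP90, averaged 42.1 ± 0.975 RPKM after CSDS against 42.0 ± 1.87 RPKM in controls among KO-labelled libraries and 41.0 ± 1.71 RPKM after CSDS against 41.4 ± 0.900 RPKM in controls among WT libraries and passed in neither.

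HSP40 proteins bring clients to HSP70 and start its ATP hydrolysis, and 6 of 7 were lower in each genotype (medians −0.20 in KO-labelled and −0.24 in WT libraries). Among the class A genes, Dnaja1 had log2 fold changes of −0.20 ± 0.03, adjusted p = 0.00235 in KO-labelled libraries and −0.24 ± 0.04, adjusted p = 0.00228 in WT, and Dnaja4 of −0.28 ± 0.04, adjusted p = 0.00159 in KO-labelled libraries and −0.26 ± 0.03, adjusted p = 0.000643 in WT. Dnaja4 shares 1581 exonic bases with Wdr61 on the opposite strand, and the library kit keeps no strand, so its level may hold reads of that gene. Dnaja1 likewise shares 608 of its 8629 exonic bases with Smu1 on the opposite strand. Dnaja2 was lower in KO-labelled libraries (−0.10 ± 0.03, adjusted p = 0.0309) and did not pass in WT (−0.07 ± 0.03, adjusted p = 0.105).

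Among the class B genes, Dnajb1, the prototype HSP40, averaged 15.1 ± 0.439 RPKM in KO-labelled libraries after CSDS against 16.9 ± 1.91 RPKM in their controls, with control 10 the highest of them at 19.7 RPKM, and did not pass (−0.15 ± 0.06, adjusted p = 0.157). It averaged 15.5 ± 0.653 RPKM in WT after CSDS against 19.3 ± 1.52 RPKM in WT controls and was lower (−0.30 ± 0.05, adjusted p = 0.00308). Dnajb4 fell in both genotypes, with log2 fold changes of −0.22 ± 0.03 in KO-labelled libraries and −0.26 ± 0.03 in WT, and Dnajb5 likewise with −0.21 ± 0.03 in KO-labelled libraries and −0.24 ± 0.03 in WT. Dnajb6, which keeps polyglutamine proteins from aggregating, averaged 22.5 ± 0.763 RPKM after CSDS against 25.5 ± 0.950 RPKM in controls among KO-labelled libraries (−0.18 ± 0.03, adjusted p = 0.00771) and 22.0 ± 0.714 RPKM after CSDS against 23.5 ± 0.157 RPKM in controls among WT libraries (−0.09 ± 0.02, adjusted p = 0.0214).

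The largest drop in KO-labelled libraries was that of Hspb1 (ENSMUSG00000004951, chr5:135887919-135889563), a small heat shock protein that holds unfolded chains without ATP. It was at 3.10, 2.04, 3.61, 2.58 and 2.87 RPKM in KO-labelled libraries after CSDS, against 4.28, 3.67, 4.79, 5.81 and 6.63 RPKM in KO-labelled controls. It was at 3.57, 3.30, 3.95, 3.05 and 4.28 RPKM in WT after CSDS, against 4.52, 5.89, 7.19, 5.09 and 6.05 RPKM in WT controls. The KO-labelled controls were spread between 3.67 and 6.63 RPKM, and the groups did not overlap in either genotype. The log2 fold change was −0.72 ± 0.16, adjusted p = 0.0144 in KO-labelled libraries and −0.59 ± 0.12, adjusted p = 0.00607 in WT. Of its 75-base stretches 46.4% are shared, mainly with the pseudogene Hsp25-ps1. Hspb1 is also known from vessels and glia. Of 6 endothelial markers 5 were lower and 1 higher after CSDS in KO-labelled libraries, where 8.88% of all genes tested were lower and 6.17% higher. In WT, 2 were lower and 1 higher, where 12.5% of all genes tested were lower and 9.88% higher. Astrocyte markers were mixed, with 2 of 6 lower and 1 higher in KO-labelled libraries and 1 lower and 2 higher in WT. Their part in the Hspb1 values was not tested.

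Bag3 (ENSMUSG00000030847, chr7:128523616-128546981), an exchange factor of HSP70 that works with small heat shock proteins in autophagy, was at 2.26, 2.03, 2.72, 2.27 and 2.47 RPKM in KO-labelled libraries after CSDS, against 3.41, 2.62, 2.98, 3.39 and 3.43 RPKM in KO-labelled controls. It was at 2.62, 2.02, 2.31, 2.58 and 2.64 RPKM in WT after CSDS, against 3.23, 3.43, 3.55, 3.14 and 3.52 RPKM in WT controls. In KO-labelled libraries control 7 lay below the highest CSDS library, and in WT the groups lay apart. The log2 fold change was −0.36 ± 0.08, adjusted p = 0.0156 in KO-labelled libraries and −0.40 ± 0.07, adjusted p = 0.00242 in WT. At these low levels the pseudocount of 0.5 RPKM makes the log2 fold changes of Hspb1 and Bag3 understatements.

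The mitochondrial chaperones did not move as a group. Hspe1, the lid of the mitochondrial chaperonin, averaged 27.5 ± 0.995 RPKM after CSDS against 31.8 ± 2.80 RPKM in controls among KO-labelled libraries (−0.20 ± 0.05, adjusted p = 0.0307) and 28.1 ± 1.62 RPKM after CSDS against 32.1 ± 1.51 RPKM in controls among WT libraries (−0.19 ± 0.04, adjusted p = 0.0135). Its partner Hspd1, the HSP60 chamber, averaged 63.1 ± 1.61 RPKM after CSDS against 63.5 ± 3.59 RPKM in controls among KO-labelled libraries (−0.01 ± 0.04, adjusted p = 0.924) and 59.2 ± 3.06 RPKM after CSDS against 62.0 ± 0.561 RPKM in controls among WT libraries (−0.07 ± 0.03, adjusted p = 0.165). The pair that shares the start region printed above differed in its calls, and whether the changes of the pair differ from each other was not tested. Other genes share 31% of the 75-base stretches of Hspd1 and 14.6% of those of Hspe1. Hspd1 and Hspe1 also share 112 exonic bases on opposite strands, in libraries that keep no strand. Hspa9, the mitochondrial HSP70, had log2 fold changes of 0.05 in KO-labelled and 0.06 in WT libraries and passed in neither.

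Of the 2 heat shock factors 0 passed in either genotype (limma), with 1, Hsf1, lower at an unadjusted p under 0.05 in each. Hsf1 (ENSMUSG00000022556, chr15:76477422-76501913), the main regulator of the response, was at 12.5, 13.5, 13.9, 13.6 and 13.7 RPKM in KO-labelled libraries after CSDS, against 14.7, 13.3, 14.4, 14.2 and 15.1 RPKM in KO-labelled controls. It was at 13.1, 13.1, 13.9, 13.9 and 13.0 RPKM in WT after CSDS, against 13.3, 14.7, 15.0, 14.8 and 14.1 RPKM in WT controls. Its groups overlapped in WT and in KO-labelled libraries, with log2 fold changes of −0.09 ± 0.04, adjusted p = 0.161 in KO-labelled libraries and −0.10 ± 0.04, adjusted p = 0.0820 in WT. Hsf2 (ENSMUSG00000019878, chr10:57486385-57513135), a related factor, was at 9.27, 9.41, 9.09, 8.43 and 9.27 RPKM in KO-labelled libraries after CSDS, against 9.09, 9.55, 8.89, 9.03 and 8.60 RPKM in KO-labelled controls. It was at 9.05, 9.02, 8.33, 8.43 and 9.09 RPKM in WT after CSDS, against 8.77, 9.31, 9.01, 9.23 and 9.11 RPKM in WT controls. The groups overlapped throughout (0.01 ± 0.04, adjusted p = 0.900 in KO-labelled libraries and −0.05 ± 0.03, adjusted p = 0.322 in WT). These are RNA levels, and HSF1 is known to be controlled largely at the protein, which was not measured.

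TRiC/CCT subunits, which form a closed ring around actin and tubulin, mostly missed the threshold, as did most genes tested. Of 7 subunits, 0 passed in KO-labelled libraries, with 1 higher at an unadjusted p under 0.05 (limma), and 1 was lower in WT. Of all genes tested, 8.88% were lower and 6.17% higher in KO-labelled libraries, and 12.5% lower and 9.88% higher in WT. Counts in 7 genes do not part the subunits from those shares. The median log2 fold change of the 7 was 0.03 in KO-labelled and −0.01 in WT libraries. Tcp1 (ENSMUSG00000068039, chr17:12915701-12925067) was at 37.4, 35.2, 33.9, 34.7 and 36.3 RPKM in KO-labelled libraries after CSDS, against 33.9, 34.7, 32.6, 32.9 and 36.5 RPKM in KO-labelled controls. It was at 33.5, 34.6, 34.0, 33.8 and 33.2 RPKM in WT after CSDS, against 33.7, 34.4, 33.1, 34.3 and 34.0 RPKM in WT controls. The groups overlapped in both genotypes (−0.03 to 0.14 as the 95% interval of the log2 fold change in KO-labelled libraries and −0.05 to 0.04 in WT). Tcp1 shares 571 of its 5030 exonic bases with Acat3 on the opposite strand, in libraries that keep no strand. Cct4 did not pass in KO-labelled libraries (−0.06 ± 0.04, adjusted p = 0.341) and was lower in WT, averaging 20.0 ± 0.521 RPKM after CSDS and 21.5 ± 0.619 RPKM in controls (−0.10 ± 0.03, adjusted p = 0.0223). The log2 fold changes of Cct2, Cct3, Cct5, Cct7 and Cct8 were 0.07, −0.02, 0.07, 0.03 and 0.01 in KO-labelled libraries. In WT they were 0.05, −0.02, 0.02, −0.01 and −0.05.

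**Figure D3:**
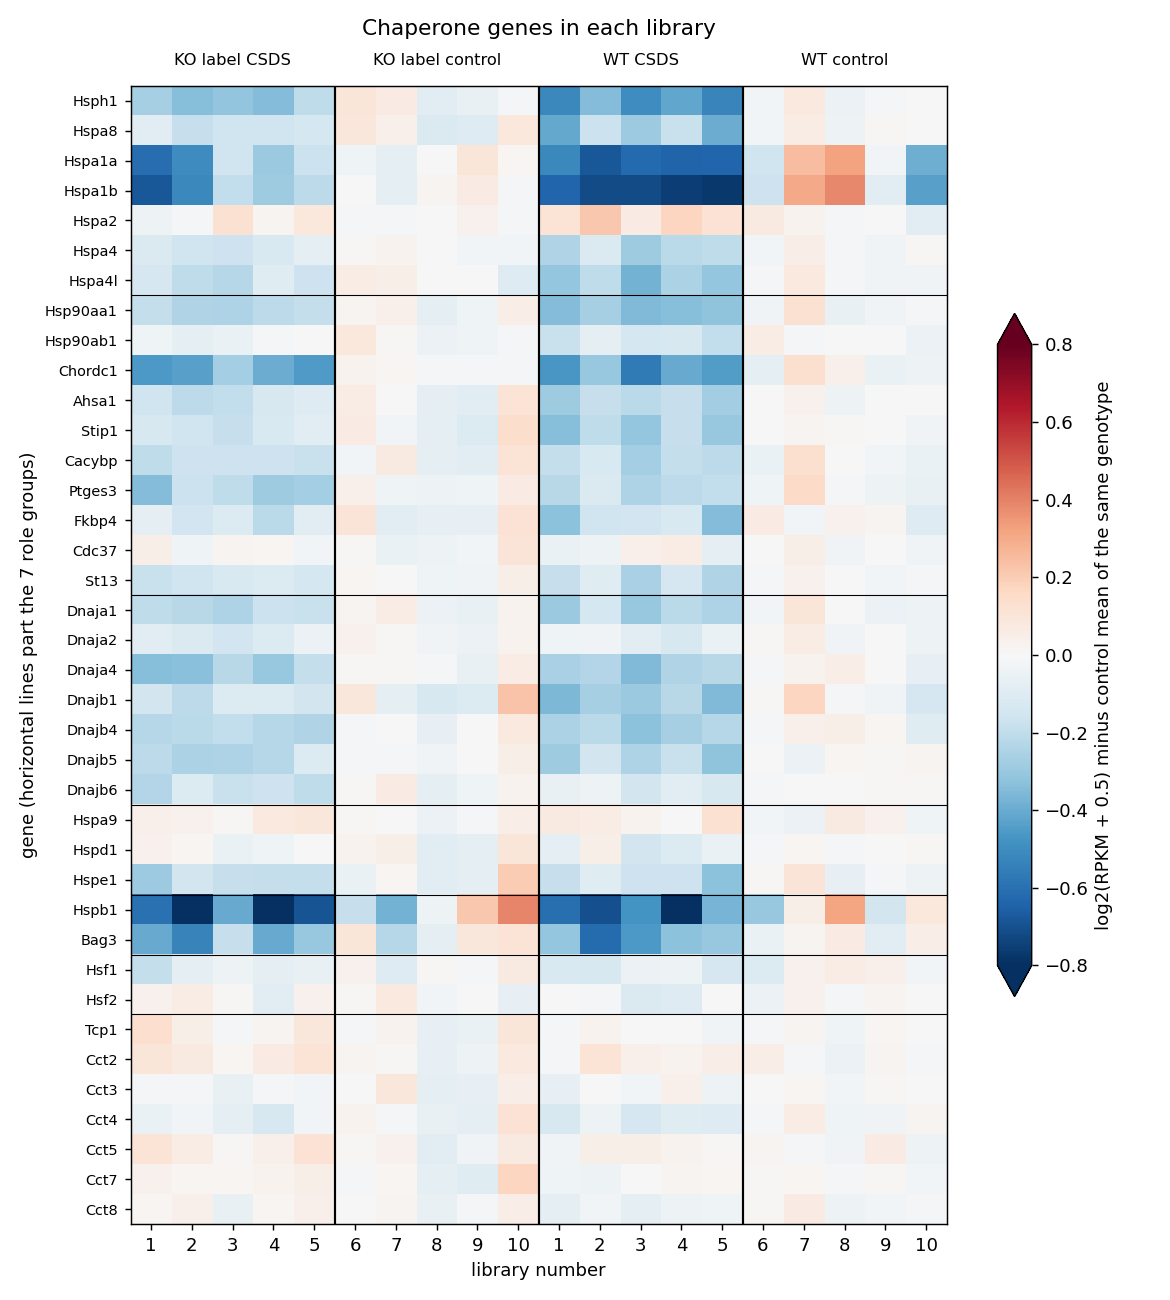
Difference of log2(RPKM + 0.5) from the control mean of the same genotype, for 38 chaperone genes (rows, parted by role) in 20 libraries (columns, from left to right KO-labelled CSDS, KO-labelled control, WT CSDS, WT control). Blue is below and red above the control mean. Most HSP70, HSP90 and HSP40 rows are blue in all 5 libraries of each CSDS block, with Hspa2 and Cdc37 exceptions, and the TRiC/CCT rows at the bottom are paler.

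The drop was spread over the libraries rather than carried by 1 of them. Summed over the 38 genes, chaperone RNA took 0.486% to 0.528% of all RPKM in KO-labelled libraries after CSDS, against 0.531% to 0.578% in KO-labelled controls. It took 0.464% to 0.508% in WT after CSDS, against 0.551% to 0.592% in WT controls. The ranges did not meet in either genotype. This share leans on the most abundant genes. In KO-labelled libraries after CSDS, Hsp90ab1, Hspa8 and Hsp90aa1 averaged 450, 412 and 240 RPKM, in a sum of 2173 to 2251 RPKM. Of these, Hsp90ab1 and Hspa8 did not pass in KO-labelled libraries. For each library, the median difference of the 38 genes from their control means of the same genotype was taken on the log2 scale. It was −0.16 to −0.11 in KO-labelled libraries after CSDS and −0.23 to −0.12 in WT after CSDS. Leaving out any 1 library left 17 to 21 genes called lower in KO-labelled libraries and 24 to 26 in WT.

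Levels span a wide range within the family, from Bag3 at 3.17 ± 0.359 RPKM to Hsp90ab1 at 461 ± 16.4 RPKM in KO-labelled controls, a scale already set per length of gene. Hsp90ab1 and Hspa8 are neighbours at the top that do not differ beyond their spread in controls, at 461 ± 16.4 and 456 ± 31.7 RPKM in KO-labelled libraries and 487 ± 12.9 and 481 ± 12.6 RPKM in WT. Hsp90aa1 came next. At the low end stood Bag3, Hspb1, Hspa1a, Hsf2 and Hspa1b, of which Hspa1a and Hsf2 lay within their spread of each other in KO-labelled controls (9.01 ± 0.430 and 9.03 ± 0.345 RPKM).

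Whether the effect of CSDS differed between the genotypes was tested directly, as the KO-labelled minus the WT effect in 1 fit of all 4 groups. Of the 38 genes 0 passed (limma), where 0.148% of all 18263 genes tested did, and 7 had an unadjusted p under 0.05. Among all genes tested, Hspa8, at an unadjusted p of 0.0562 (limma), ranked 2259 by p. The estimate was nearest to passing for Hsph1, whose log2 fold change after CSDS was −0.29 in KO-labelled libraries and −0.46 in WT (difference 0.17 ± 0.06, 95% interval 0.04 to 0.29, adjusted p = 0.261). Hsp90ab1 had a difference of 0.11 ± 0.04 (adjusted p = 0.327), Hspa4l of 0.13 ± 0.05 (adjusted p = 0.355) and Hsp90aa1 of 0.11 ± 0.05 (adjusted p = 0.372). Dnajb6 went the other way, with −0.08 ± 0.04 (adjusted p = 0.436). The intervals of the 38 differences spanned −0.57 to 0.70. For 29 of 38 genes the estimated effect was more negative in WT than in KO-labelled libraries, which is a description, since the genes share libraries. A gene called in WT and not in KO-labelled libraries, such as Hspa8 (95% interval of the difference −0.0042 to 0.29), is thus not shown to differ between them.

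Between genotypes after CSDS, 0 of the 38 genes passed (limma; 2.24% of all genes tested did), with 11 at an unadjusted p under 0.05. Among these, Cct4 was at 21.8 ± 0.687 RPKM in KO-labelled libraries and 20.0 ± 0.521 RPKM in WT (0.12 ± 0.03, adjusted p = 0.0593), and Cct8 at 50.5 ± 1.46 RPKM in KO-labelled libraries and 47.3 ± 0.885 RPKM in WT (0.10 ± 0.03, adjusted p = 0.0613). Among controls 2 were higher and 0 lower in KO-labelled libraries, where 2.45% of all genes tested were called higher and 1.50% lower (6 and 3 of the 38 at an unadjusted p under 0.05). The share of all genes at an unadjusted p under 0.05 was not counted in either comparison. Dnaja2 averaged 62.6 ± 1.58 RPKM in KO-labelled controls and 57.9 ± 1.55 RPKM in WT controls (0.11 ± 0.03, adjusted p = 0.0210), and Dnajb6 averaged 25.5 ± 0.950 RPKM in KO-labelled controls and 23.5 ± 0.157 RPKM in WT controls (0.12 ± 0.03, adjusted p = 0.0262). Of all genes called among controls 62.1% were higher in KO-labelled libraries, and 51.0% when each library was centred on its median or 52.1% after quantile normalization. Both calls are lost when each library is so centred or when control 10 of each genotype is left out. With conflicting libraries counted as controls, 4 are called higher and 2 lower.

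In the rest of the chaperone system, genes were called in both directions, and the counts are to be read against the shares of all genes tested: 8.88% lower and 6.17% higher in KO-labelled libraries, and 12.5% lower and 9.88% higher in WT. No change of a list as a whole is read from these counts. Of 18 further cytosolic HSP40 genes, 2 were lower and 1 higher in KO-labelled libraries and 3 lower and 1 higher in WT. Dnajb2, a neuronal HSP40, fell in both (−0.20 ± 0.05 in KO-labelled and −0.33 ± 0.06 in WT libraries), as did Dnajc21 (−0.17 ± 0.04 in KO-labelled and −0.22 ± 0.03 in WT libraries), and Dnajc18 rose (0.15 ± 0.03 in KO-labelled and 0.09 ± 0.02 in WT libraries). Of 13 further HSP70 and exchange-factor genes, 1 was lower in KO-labelled libraries and 3 in WT, with Hspa13 at −0.11 ± 0.03 in KO-labelled and −0.14 ± 0.04 in WT libraries and Hspa12a at −0.17 ± 0.03 in WT. Of 21 further HSP90 co-chaperones, 0 were lower (limma; 3 at an unadjusted p under 0.05) and 2 higher in KO-labelled libraries, and 5 lower and 2 higher in WT. Nudcd3 rose in both (0.19 ± 0.03 in KO-labelled and 0.22 ± 0.05 in WT libraries), and Rpap3 rose in KO-labelled libraries (0.21 ± 0.03), while Cdc37l1 (−0.21 ± 0.04) and Sugt1 (−0.13 ± 0.03) fell in WT.

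Of 16 prefoldin and tubulin cofactor genes, which act beside TRiC/CCT, 3 were lower and 2 higher in KO-labelled libraries and 1 was lower and 4 higher in WT. Tbca, which binds beta-tubulin, fell in both (−0.36 ± 0.05 in KO-labelled and −0.37 ± 0.04 in WT libraries). The prefoldin subunit gene Vbp1 fell in KO-labelled libraries (−0.24 ± 0.04), and Tbce (0.15 ± 0.03) and Tbcd (0.18 ± 0.04) rose in WT. Of 15 further mitochondrial chaperones and proteases, 1 was lower in KO-labelled libraries and 1 lower and 2 higher in WT, and Dnajc28 fell in both (−0.29 ± 0.04 in KO-labelled and −0.42 ± 0.05 in WT libraries). Among further small heat shock proteins, Hspb6 rose in both (0.37 ± 0.10 in KO-labelled and 0.34 ± 0.11 in WT libraries) and Cryab, the abundant alpha-B crystallin, fell in WT (−0.39 ± 0.05). Heat shock factor regulators and the remaining chaperonin subunits had 0 of 3 called in either genotype (limma), and 0 at an unadjusted p under 0.05.

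**Figure D4:**
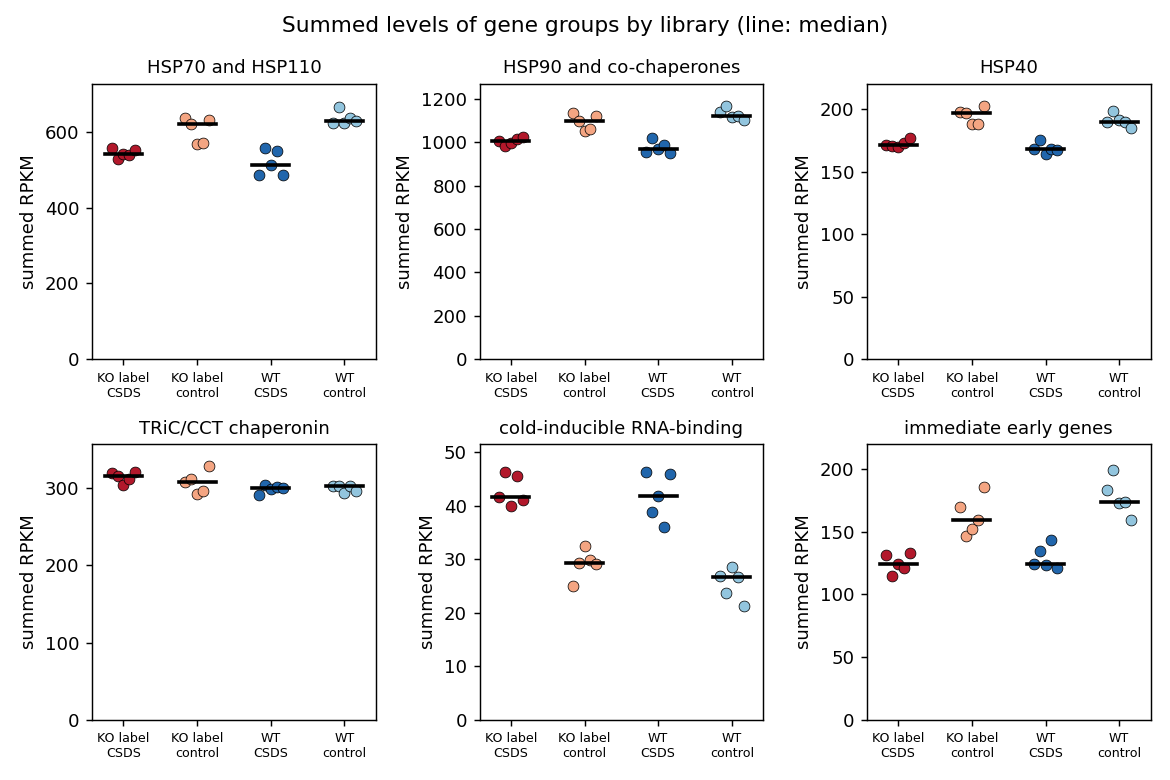
Summed RPKM of 4 chaperone groups (HSP70 and HSP110, HSP90 and co-chaperones, HSP40, TRiC/CCT), of the cold-inducible genes Cirbp and Rbm3, and of 18 immediate early genes in each library, groups from left to right KO-labelled CSDS, KO-labelled control, WT CSDS and WT control. Points are libraries and lines medians of 5. The first 3 chaperone sums and the immediate early sum are lower after CSDS with no overlap, the cold-inducible sum is higher, and the TRiC/CCT sum overlaps.

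Other measures moved with these genes in the same libraries. Cirbp and Rbm3, RNA-binding proteins known to rise when cells cool, rose in both genotypes, where most of the 38 chaperone genes fell. Cirbp averaged 21.4 ± 1.59 RPKM in KO-labelled libraries after CSDS and 15.0 ± 1.32 RPKM in their controls (0.50 ± 0.07, adjusted p = 0.00159), and 21.6 ± 2.65 RPKM in WT after CSDS and 13.3 ± 1.29 RPKM in WT controls (0.68 ± 0.09, adjusted p = 0.00103). Rbm3, which overlaps an antisense gene, had log2 fold changes of 0.59 ± 0.07, adjusted p = 0.000973 in KO-labelled and 0.72 ± 0.10, adjusted p = 0.00117 in WT libraries. Their summed level was 40.0 to 46.4 RPKM in KO-labelled libraries after CSDS against 25.1 to 32.5 RPKM in KO-labelled controls, and 36.0 to 46.3 RPKM in WT after CSDS against 21.2 to 28.5 RPKM in WT controls. Of 17 immediate early genes tested, which neurons switch on with activity, 9 were lower in KO-labelled libraries (where 8.88% of all genes tested were) and 13 in WT (where 12.5% were). Their part in the chaperone result was not tested.

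Structural RNAs and cell type markers were also compared, against the same background of 8.88% of all genes lower and 6.17% higher in KO-labelled libraries and 12.5% lower and 9.88% higher in WT. Structural RNAs without a poly(A) tail, which such libraries should mostly lack, summed to 48.8 to 71.9 RPKM in KO-labelled libraries after CSDS against 77.7 to 517 RPKM in their controls, and to 46.4 to 77.3 RPKM in WT after CSDS against 84.5 to 278 RPKM in WT controls, and 4 of 6 were lower in KO-labelled libraries and 6 of 6 in WT. Of 6 endothelial markers 5 were lower and 1 higher in KO-labelled libraries, with sums of 59.1 to 64.6 RPKM after CSDS and 70.9 to 81.6 RPKM in controls. In WT, 2 were lower and 1 higher, with sums of 61.3 to 71.9 RPKM after CSDS and 65.4 to 84.4 RPKM in controls. All 5 red blood cell markers were higher in WT after CSDS, at 559 to 2807 RPKM against 206 to 297 RPKM in WT controls, and 0 of 5 passed in KO-labelled libraries (limma; 2 were lower at an unadjusted p under 0.05), at 178 to 356 RPKM after CSDS against 260 to 377 RPKM in their controls. Of 6 meningeal fibroblast markers 4 were lower in KO-labelled libraries and 0 passed in WT (limma; 1 was higher at an unadjusted p under 0.05). Their sums were 31.3 to 55.3 RPKM in KO-labelled libraries after CSDS against 50.6 to 89.6 RPKM in their controls, and 58.0 to 78.8 RPKM in WT after CSDS against 25.4 to 103 RPKM in WT controls. The 6 excitatory neuron markers, which mark the labelled tissue, summed to 1104 to 1162 RPKM in KO-labelled libraries after CSDS and 1133 to 1225 RPKM in their controls, and to 1183 to 1241 RPKM in WT after CSDS and 1122 to 1261 RPKM in WT controls. Of these 6, 1 was lower in KO-labelled libraries and 0 passed in WT (limma; 1 was lower and 1 higher at an unadjusted p under 0.05). For the lists that follow, nothing is read from 1 or 2 calls. Of 6 interneuron markers 3 were higher in KO-labelled libraries and 1 was lower in WT. Of 6 astrocyte markers 2 were lower and 1 higher in KO-labelled libraries and 1 lower and 2 higher in WT. In KO-labelled libraries 1 of 6 microglial markers was lower and 1 of 4 oligodendrocyte precursor markers higher, and in WT 1 microglial and 2 precursor markers were higher and 1 of 6 oligodendrocyte markers lower. Of 6 choroid plexus markers 0 passed in either genotype (limma), and 0 at an unadjusted p under 0.05. No marker of these lists was at 0 in all libraries, and their part in the chaperone result was not tested.

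The authors' deposited table, made with edgeR per its headers, lists 20 of the 38 genes as lower and 0 as higher after CSDS in KO-labelled libraries at a false discovery rate under 0.05, and 24 as lower and 1 as higher in WT. In the authors' deposited table, 3055 of 17840 genes passed in KO-labelled libraries and 3739 of 17840 in WT, with both directions counted together. The share of all genes listed there as lower alone was not counted. It differs from the calls above for Dnajb6 in WT and for Stip1 and Dnaja2 in KO-labelled libraries, and its control mean includes the libraries of conflicting label.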

How the data were processed

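Per the labels' protocols, poly(A) RNA of the hippocampus was made into libraries with a kit that keeps no strand and read as 75 bp single-end fragments. STAR and mm10 are the aligner and build named per the submitters' processing notes. Which STAR version, annotation and counter were used is not given in the sources used here. The authors deposited RPKM for every library and, per the file headers, log2 fold changes and mean log2 abundance, a score (likelihood ratio) with p-values and false discovery rates from edgeR. Their fold changes run control over CSDS.

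RPKM were tested as log2(RPKM + 0.5) with limma-trend (limma 3.58.1, R 4.3.3) for genes whose mean reached 0.5 RPKM in the libraries of the fit, two-sided, with Benjamini-Hochberg adjustment over all genes at 0.05. On this scale changes of weakly expressed genes come out too small. CSDS was set against control within each genotype, and 1 fit of all 4 groups gave the difference of effects and both genotype comparisons. These 5 comparisons reuse libraries. The scripts were tested on simulated data. Depth was estimated from the steps between low RPKM values of 11609 single-exon genes, of which 94.7 to 95.7% came within 0.05 reads of a whole number. Depth sets counting error only. All 38 genes had the same coordinates in GENCODE M21, and coordinates are mm10 as deposited.

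Values in every library are given for genes with a log2 fold change of at least 0.3 in size in either CSDS comparison and for 8 fixed genes (Hspa8, Hsp90ab1, Hspa1a, Hspa1b, Hspb1, Hsf1, Hsf2 and Tcp1). Of each further list, up to 3 called genes of smallest p per comparison are named. The 38 genes, the lists and the markers were chosen with earlier results of these data known. Alternatives changed the pseudocount, filter, scaling, weights, placement of the 3 libraries of conflicting label, block and libraries used.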

Additional observations from a re-analysis of the deposited data

Results flagged for a closer look

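For each of the 38 genes and 4 groups of 5, the most extreme library was set against Dixon's criterion, and 7 of 152 such groups had a library past it, where chance alone gives about 1 in 20. WT control 7 stood above the other WT controls for 4 genes: Hsp90aa1 at 317 RPKM (others 279 to 288), Hspa4l at 18.6 RPKM (others 17.2 to 17.5), Cacybp at 34.7 RPKM (others 30.5 to 31.6) and Ptges3 at 43.2 RPKM (others 37.2 to 38.3). Without WT control 7, 25 of the 38 genes were still called lower in WT after CSDS. KO-labelled control 9 was the highest of its group for Hspa2, at 20.7 RPKM (others 20.0 to 20.1). WT library 3 after CSDS was the lowest of its group for Dnaja4, at 15.2 RPKM (others 16.2 to 16.6). KO-labelled library 1 after CSDS was the lowest of its group for Hsf1, at 12.5 RPKM (others 13.5 to 13.9).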

How the results depend on the processing

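None of the called chaperone genes changed direction under the alternatives run. Placing the 3 libraries of conflicting label by treatment field left 1240 genes called in WT after CSDS, with 19 chaperone genes lower and 0 higher, and 143 in KO-labelled libraries, with 0 chaperone genes lower. It left 1 gene called for the difference of effects, 1 chaperone gene higher with the KO label after CSDS, and 399 genes, 1 of them a chaperone gene called higher, among controls. Placing them by title gave 98 genes for the difference of effects, 2 chaperone genes higher with the KO label after CSDS, and 1627 genes among controls, with 4 chaperone genes higher and 2 lower. In KO-labelled libraries 1 chaperone gene became higher after CSDS under quantile normalization, array weights or without control 10 of each genotype. Array weights gave 172 genes for the difference, 728 with 2 chaperone genes higher for the KO label after CSDS, and 1 chaperone gene lower among controls. Without control 10 of each genotype the counts were 181 for the difference, 629 with 3 chaperone genes higher after CSDS, and 0 higher and 1 lower chaperone gene among controls. Quantile normalization made 3 chaperone genes higher with the KO label after CSDS, and median centring left 480 genes and 0 chaperone genes higher among controls. The causes were not tested.

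Leaving out 1 library at a time gave 3077 to 4016 genes called in WT after CSDS, with 24 to 26 chaperone genes lower and 0 to 1 higher (0 without WT CSDS library 4). In KO-labelled libraries it gave 1658 to 3668 genes, fewest without CSDS library 4, with 17 to 21 chaperone genes lower and 0 to 1 higher. For the difference of effects it gave 16 to 244 genes, fewest without WT control 9 and most without WT control 10, and 0 chaperone genes. For the KO label against WT it gave 245 to 586 genes after CSDS, with 0 to 3 chaperone genes higher, and 368 to 890 among controls, with 1 to 2 higher and 0 to 1 lower. Among single calls in KO-labelled libraries, Dnaja2 was lost under 8 of 21 alternatives, Ahsa1 and Hspe1 under 7 and Hspa1a under 2. In WT, Cct4 and Dnajb6 were lost under 3 and Hspa2 under 2.

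Library numbers are shared between genotypes, not between CSDS and control, so no paired fit of CSDS against control was possible. Same-numbered libraries did not deviate together throughout (r from −0.11 to 0.37 in controls and −0.01 to 0.10 after CSDS). The closest WT library had the same number for KO-labelled controls 6, 8 and 10 and for KO-labelled CSDS libraries 2 and 4, and a different number for the others. The labels do not say that the numbers pair animals, so they are not taken as pairs. With the library number as a replicate block, 23 genes were called for the difference of effects, 282 for the KO label after CSDS and 544 among controls, with 0, 0 and 2 chaperone genes.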

Other observations

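The 3 libraries whose title and treatment field disagree are given as values only. In WT library 9B the 38 chaperone genes took 0.567% of all RPKM, in KO-labelled library 11 0.551% and in KO-labelled library 10B 0.553%. Taken over the 38 genes, the median log2 difference from the control mean of the same genotype was −0.03 in WT 9B. It was −0.01 in KO-labelled 11 and −0.02 in KO-labelled 10B. Of the 38 genes 25 lay below the control mean in WT 9B, 23 in KO-labelled 11 and 22 in KO-labelled 10B. Hsph1 was at 48.5 RPKM in WT 9B, 45.8 RPKM in KO-labelled 11 and 46.8 RPKM in KO-labelled 10B, and Chordc1 at 27.5 RPKM in WT 9B, 31.0 RPKM in KO-labelled 11 and 28.1 RPKM in KO-labelled 10B. Hspb1 was at 5.10 RPKM in WT 9B, 3.59 RPKM in KO-labelled 11 and 3.55 RPKM in KO-labelled 10B.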
